A study of Mus musculus with 3 samples.

Results

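The cells described here are a small group of secretory cells of the mouse nasal mucosa that carried high levels of the secretoglobin transcripts Scgb1b27 and Scgb2b27 together with the secreted carbonic anhydrase Car6. Kept barcodes had 500 or more unique molecular identifiers (UMIs), 200 or more genes with a UMI and no more than 20% of UMIs from mitochondrial genes. Among them, a barcode was taken as a member when Scgb1b27 and Scgb2b27 each made up at least 0.5% of its UMIs, Car6 made up at least 0.05%, and the leukocyte gene Ptprc was not detected. The rule found 143 members among 32376 kept cells. They comprised 21 of 12149 cells of the library of papain with lonidamine, 30 of 10712 cells of the papain library and 92 of 9515 cells of the PBS library. Because these genes chose the members, their levels are given as a description and support nothing else.

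All mice were C57BL/6J, with males and females in equal number in each group. The mucosa of a group's mice was combined into 1 library. The cells were not balanced by sex, since of cells assigned by Xist and Y-linked transcripts 83.3% were female in the lonidamine library, 73.4% in papain and 56.8% in PBS, and the part of this in the results was not tested. Mice of the first group, called the lonidamine library below, received 20 µg papain in the nose and lonidamine at 10 mg/kg by gavage. Papain is a plant cysteine protease used in mice to raise allergic airway inflammation, here as a model of eosinophilic chronic rhinosinusitis. Lonidamine is an inhibitor of hexokinase and of the transport of lactate and pyruvate. The second group received the same papain dose with PBS by gavage, and the third received PBS in the nose. How many mice made up each pool is not stated in the labels. With 1 pooled library per group, no spread between animals could be measured, and no p-value is given. Values in square brackets are 95% intervals that cover counting error only.

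Scgb1b27 and Scgb2b27 encode the alpha and the beta-gamma subunit of mouse androgen-binding proteins, small disulphide-linked secretoglobin dimers that are released into saliva and other secretions of the head. Car6 encodes a secreted carbonic anhydrase, an enzyme of saliva that interconverts carbon dioxide and bicarbonate. The nasal mucosa holds several gland types below its epithelium, whose serous cells make lactoferrin, peptidoglycan recognition proteins and other antimicrobial products, and whose fluid secretion depends on chloride and potassium channels and on aquaporin water channels. Both secretoglobin genes belong to a large mouse cluster of near-identical copies, so counts of these genes are uncertain where reads could have been split between paralogs.

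Both secretoglobin genes that define the cells lie on the same chromosome and point away from each other, and their promoters are shown because both transcripts are high in the same cells. In the RefSeq annotation of build GRCm38.p6 the annotated starts are 7539 bases apart on chromosome 7, Scgb1b27 on the plus strand (window chr7:34021231-34021530) and Scgb2b27 on the minus strand (chr7:34013893-34014192). Car6 lies on the minus strand of chromosome 4 (chr4:150201086-150201385). The fourth promoter shown is that of Ldha (chr7:46845554-46845853, plus strand), a lactate dehydrogenase gene among the 25 defining genes described below. Each window holds the 250 bases before and the 50 bases after the annotated start, from the gene's 5′ to its 3′ end. Capitals mark TATAAA or its reverse complement in the secretoglobin promoters, and CACGT, the reverse complement of ACGTG, the core of the hypoxia response element, in the others.
Scgb1b27: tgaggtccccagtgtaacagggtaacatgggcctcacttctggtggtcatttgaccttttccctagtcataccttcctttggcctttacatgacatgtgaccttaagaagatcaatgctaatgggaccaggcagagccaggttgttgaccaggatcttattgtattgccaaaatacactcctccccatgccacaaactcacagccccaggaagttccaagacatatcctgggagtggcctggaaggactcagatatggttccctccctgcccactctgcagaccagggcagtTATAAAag
Scgb2b27: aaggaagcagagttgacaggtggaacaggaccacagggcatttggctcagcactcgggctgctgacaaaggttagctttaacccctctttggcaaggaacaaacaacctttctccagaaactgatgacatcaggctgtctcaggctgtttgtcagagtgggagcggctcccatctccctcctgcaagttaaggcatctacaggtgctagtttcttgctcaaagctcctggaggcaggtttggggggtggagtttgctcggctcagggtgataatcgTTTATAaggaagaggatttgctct
Car6: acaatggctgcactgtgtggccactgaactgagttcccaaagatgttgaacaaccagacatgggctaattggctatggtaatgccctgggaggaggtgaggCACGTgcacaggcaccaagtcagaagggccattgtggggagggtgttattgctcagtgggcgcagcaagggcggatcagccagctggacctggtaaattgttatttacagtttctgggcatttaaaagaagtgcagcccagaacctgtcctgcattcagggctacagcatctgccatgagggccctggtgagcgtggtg
Ldha: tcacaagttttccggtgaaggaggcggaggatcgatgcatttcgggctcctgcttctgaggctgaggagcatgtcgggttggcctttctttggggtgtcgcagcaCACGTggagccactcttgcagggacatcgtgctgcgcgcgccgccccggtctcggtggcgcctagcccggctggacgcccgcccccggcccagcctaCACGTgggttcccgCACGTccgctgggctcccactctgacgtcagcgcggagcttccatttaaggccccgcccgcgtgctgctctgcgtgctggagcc
Searched on both strands, TATAAA was in 13.6% of all 32851 RefSeq promoter windows of this length. It was found once in the Scgb1b27 window, at position 293, and once in the Scgb2b27 window, at position 277, in both after the annotated start. ACGTG was in 19.6% of all windows. It had 2 matches in the Car6 window and 5 in the Ldha window, where matches on the 2 strands that overlap in CACGTG count separately, and of the 25 promoter windows of the 15 glycolysis genes listed below 11 held it. A match is a description of the letters and not evidence of a bound site.

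The libraries held 89164040 (lonidamine), 86197965 (papain) and 82399462 (PBS) UMIs in 12598, 11071 and 9740 deposited barcodes. The median kept cell carried 5892, 6612 and 7416 UMIs in that order, with 3.41, 3.79 and 2.38% mitochondrial UMIs. The PBS library stood apart from the others by more barcodes almost free of mitochondrial RNA. Barcodes under 0.5% mitochondrial UMIs made up 4.63% of its non-member cells, 0.462% in the lonidamine library and 0.187% in the papain library. The ribosomal RNA gene Rn18s-rs5 was lower in PBS as well, with a median of 3.80, 5.79 and 0.621% of the UMIs of members in the lonidamine, papain and PBS libraries, and 3.54, 3.97 and 0.644% in their other cells. Both differences move with every comparison with PBS below, and the part of ribosomal RNA in them was not tested. Between 22 and 38 barcode sequences were shared by any 2 libraries. The library name given for the papain group is Fibroblast, which disagrees with its title and treatment, and the treatment label was followed.

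The members carried the rule's genes at levels far above the rest of each library. Scgb1b27 was at 50691 CPM in the lonidamine library, 34588 CPM in papain and 112587 CPM in PBS, against 12.8, 6.91 and 30.4 CPM in their other cells. Scgb2b27 was at 57655 CPM in the lonidamine library, 44002 CPM in papain and 72039 CPM in PBS, against 32.7, 22.5 and 54.1 CPM in their other cells, where CPM are summed UMIs scaled to a common total, so that libraries of different depth can be set side by side. Car6 was at 18120 CPM in the lonidamine library, 15252 CPM in papain and 20335 CPM in PBS, against 38.8, 32.7 and 57.2 CPM in their other cells. The members held 91.0, 96.0 and 95.1% of all Scgb1b27 UMIs of kept cells in the lonidamine, papain and PBS libraries, and 54.3, 69.2 and 65.1% of the Car6 UMIs, so Car6 was also present in other cells. A single cell weighed heavily on Scgb1b27 in PBS. That cell, with 71979 UMIs, gave 38.4% of its own UMIs to Scgb1b27 and held 57.1% of the gene's UMIs in PBS members. Without the deepest cell of each library, Scgb1b27 was at 45123 CPM with lonidamine, 27859.6 CPM with papain and 58007 CPM with PBS, and Scgb2b27 at 53667, 39492 and 47136 CPM.

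Cells lay on both sides of the thresholds. The members closest to a threshold had 1.08 (lonidamine), 1.10 (papain) and 1.05 (PBS) times the minimum for their lowest gene. The closest cells outside reached 0.847, 0.986 and 0.938 times the minimum. Of the cells that met both secretoglobin minima, 2, 2 and 6 were left out for Car6, and 2, 0 and 2 otherwise complete cells were left out for Ptprc. A clustering of all cells without the rule's genes and without any Scgb gene placed 139 of the 143 members in 1 of 41 clusters, which held 41, 50 and 138 cells of the lonidamine, papain and PBS libraries. Its other cells, 22, 20 and 48 in number, had a median Scgb2b27 share of 0.608, 0.333 and 1.09% of UMIs.

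Checked against marker lists, the members were epithelial and secretory, while the markers of salivary acini were only partly present. All 6 pan-epithelial markers (Epcam, Krt8, Krt18, Cdh1, Cldn7 and Elf3) were detected in members of every library, with summed levels of 3741, 5599 and 3137 CPM in the lonidamine, papain and PBS libraries. Of 18 markers of gland acini, 8 (Lpo, Dmbt1, Smgc, Muc19, Dcpp1, Dcpp3, Prol1 and Tff2) had no UMI in the members of any library. Of 9 serous gland markers, Lyz1, Dmbt1 and Lpo were at 0 in all libraries, while Ltf and Wfdc18 were abundant. The 10 immune markers summed to 66.9, 70.6 and 112 CPM in members, against 5023, 2895 and 3811 CPM in other cells. The 8 olfactory neuron markers summed to 2247, 92.5 and 1186 CPM in members and 4585, 4692 and 18327 CPM in other cells, and their part in the results was not tested. Haemoglobin transcripts summed to 552 CPM in PBS members, with no UMI in the PBS members of at least 5000 UMIs. The word gland is therefore used here only as the label for cells that express these secreted products.

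Members were rarer in the papain library than in the PBS library, and rarest with lonidamine. They made up 0.173% [0.107, 0.264] of kept cells in the lonidamine library, 0.280% [0.189, 0.400] in the papain library and 0.967% [0.780, 1.18] in the PBS library (exact Clopper-Pearson intervals). The share was 3.45-fold lower with papain than with PBS, a log2 ratio of -1.79 [-2.43, -1.18], and the lonidamine library was at a log2 ratio of -0.70 [-1.57, 0.16] to papain, an interval that includes no difference.

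The members of the PBS library were mostly shallow and nearly free of mitochondrial RNA. Of the members, 4 of 21 (lonidamine), 1 of 30 (papain) and 72 of 92 (PBS) had under 0.5% mitochondrial UMIs. Those 72 PBS barcodes had a median of 1337 UMIs, and Malat1, a long RNA kept in the nucleus, made up a median of 0.0260% of their UMIs, with none detected in 31. In the 20 other PBS members Malat1 made up a median of 0.326%, against 0.746% in the 29 such papain members and 0.958% in the 17 such lonidamine members. Low mitochondrial and low nuclear RNA thus moved together with the larger share in PBS.

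Counted without those barcodes, the intervals of the papain and PBS shares overlapped. Members with at least 0.5% mitochondrial UMIs made up 0.140% [0.0815, 0.224] of kept cells with lonidamine, 0.271% [0.181, 0.389] with papain and 0.210% [0.128, 0.324] with PBS. The log2 ratio of papain over PBS was then 0.37 [-0.51, 1.26] and that of lonidamine over papain -0.95 [-1.91, -0.04]. Members under 0.5% made up 0.0329% [0.00897, 0.0843], 0.00934% [0.000236, 0.0520] and 0.757% [0.593, 0.952] in the same order. A split by depth gave the same picture. Members with at least 5000 UMIs numbered 11, 15 and 14, or 0.0905, 0.140 and 0.147% of kept cells, with a log2 ratio of papain over PBS of -0.07 [-1.22, 1.09]. The lower share with papain was thus measured in members under 5000 UMIs and under 0.5% mitochondrial UMIs. For the deeper cells, the interval from a ratio of -1.22 to 1.09 also includes a 2-fold difference in either direction.

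**Figure D1:**
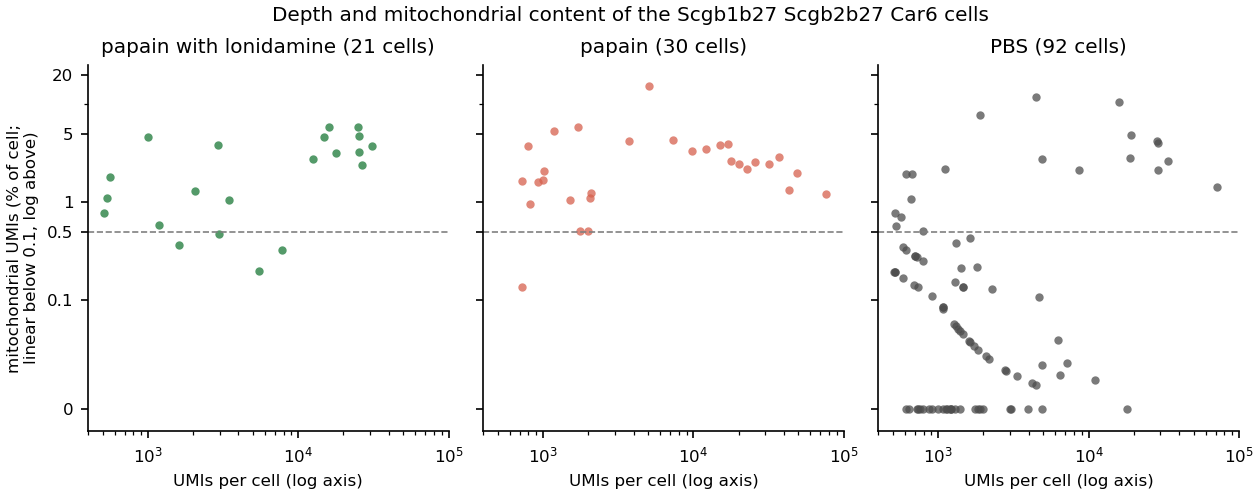
Each point is 1 member cell, placed by its UMI number (x, log axis) and its percentage of mitochondrial UMIs (y, linear below 0.1 and logarithmic above), with 1 panel per library and a dashed line at 0.5%. Of the PBS members 72 of 92 lie under the line, against 4 of 21 with lonidamine and 1 of 30 with papain.

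**Figure D2:**
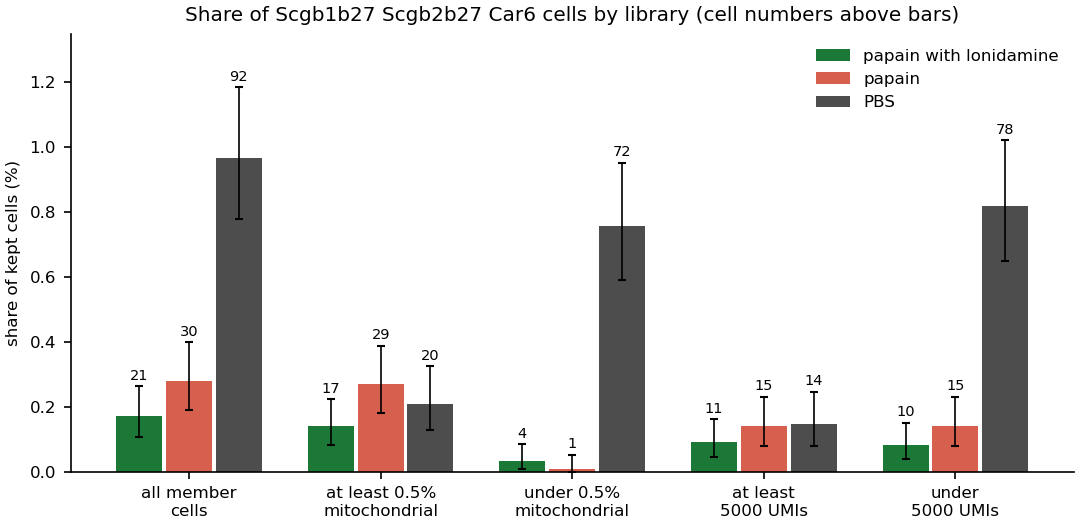
Bars give the share of member cells among kept cells (y, percent) for the lonidamine, papain and PBS libraries, for all members and after splits at 0.5% mitochondrial UMIs and at 5000 UMIs. Error bars are 95% Clopper-Pearson intervals and numbers above bars are member counts, and PBS stands above the others for all members, for those under 0.5% and for those under 5000 UMIs.

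Beyond the rule's genes, the members were set apart by antimicrobial and peptide products and by enzymes of sugar metabolism. Of 2359 genes tested, 246 (10.4%) were at least 2-fold higher and 140 (5.93%) at least 2-fold lower in members than in other cells of every library. The median log2 ratio over all genes tested was -0.00, 0.01 and -0.14 in the lonidamine, papain and PBS libraries. All of these values describe cells picked by their expression, so no test was made. The 25 genes named below had the highest lowest-of-3 ratio among genes with at least 100 CPM and detection in at least 50% of the members of every library, and 17 of them were also among the 25 found from members with at least 0.5% mitochondrial UMIs, and 16 among those from members with at least 5000 UMIs.

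Cck, the gene of the peptide hormone cholecystokinin, headed the list at 3665 CPM in the lonidamine library, 1940.2 CPM in papain and 3375 CPM in PBS, against 14.6, 12.7 and 15.4 CPM in their other cells. It was detected in 20 of 21, 26 of 30 and 76 of 92 members. Ltf encodes lactoferrin, an iron-binding antimicrobial protein of gland secretions, and had more UMIs than any other gene in lonidamine and papain members, at 89156 CPM in the lonidamine library, 86848 CPM in papain and 44481 CPM in PBS, against 2196, 2229 and 228 CPM in their other cells. Pglyrp1, a peptidoglycan recognition protein that binds bacterial cell walls, was at 32522 CPM in the lonidamine library, 23426 CPM in papain and 33481 CPM in PBS, against 307, 279 and 118 CPM in their other cells. The fold over other cells was larger in PBS for Ltf and Pglyrp1, and the level of both genes in other cells was lowest in PBS. Fbp1, a fructose-bisphosphatase of gluconeogenesis, was at 459 CPM in the lonidamine library, 368 CPM in papain and 850.1 CPM in PBS, against 2.94, 2.43 and 6.06 CPM in their other cells. Mfsd4a, a membrane protein of the major facilitator family, was at 8222 CPM in the lonidamine library, 6446 CPM in papain and 3529 CPM in PBS, against 105, 97.2 and 70.7 CPM in their other cells. S100b, a calcium-binding protein best known from glia, was at 718 CPM in the lonidamine library, 618 CPM in papain and 971 CPM in PBS, against 13.4, 15.2 and 6.59 CPM in their other cells. Cldn10, a claudin that forms ion-selective tight junctions, was at 2345 CPM in the lonidamine library, 2077 CPM in papain and 2310.5 CPM in PBS, against 101, 91.7 and 144 CPM in their other cells. The other defining genes were 9 of glycolysis described below (Aldoa, Pfkl, Pfkp, Ldha, Eno1, Hk1, Pkm, Pgk1 and Gpi1), Fxyd3 and Hif1a, and Abhd11os, Cited4, Atp6v1c2, Pmm1, Mcee, Bmyc and Bag1.

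**Figure D3:**
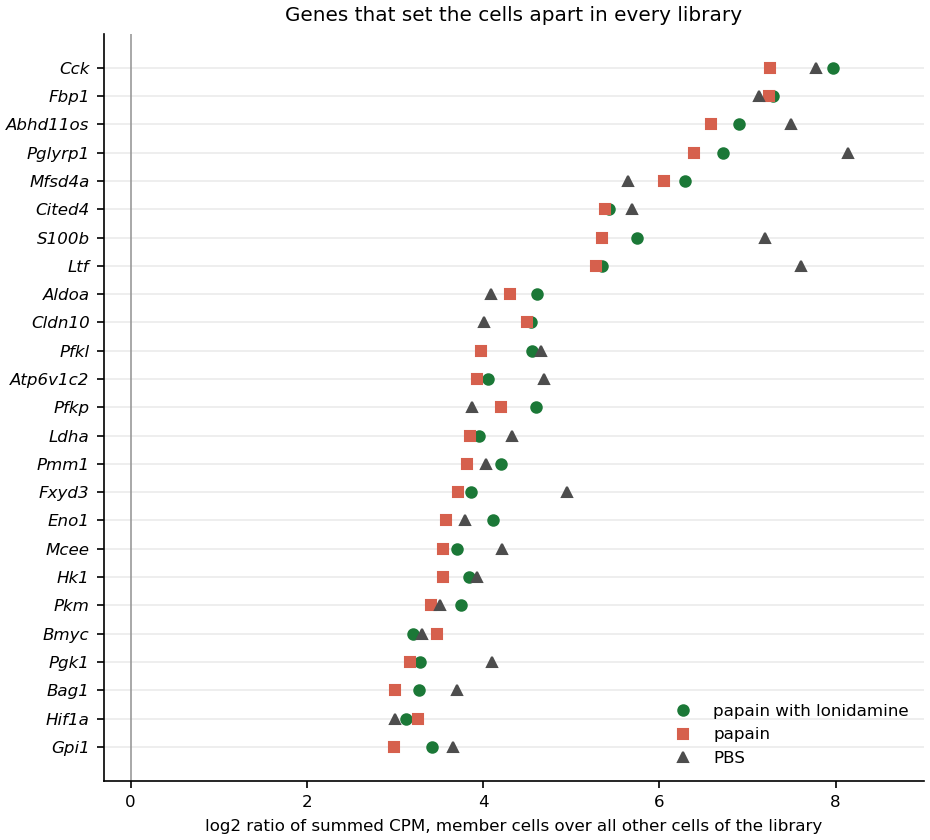
Points give the log2 ratio of summed CPM in member cells over all other cells of the same library (x) for the 25 defining genes (y), by library. All ratios lie between 2.98 and 8.14, and the largest gaps between libraries are those of Ltf, Pglyrp1 and S100b, whose PBS ratios are the highest.

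Genes of glycolysis were higher in members as a group. Of the 14 tested genes of a 15-gene list, 12 were at least 2-fold higher in members of every library and 1 was lower, beside 10.4% and 5.93% of all genes. The list median was a log2 ratio of 3.36 with lonidamine, 3.10 with papain and 3.58 with PBS. The summed level of the list was 31313 CPM in lonidamine members, 27894 CPM in papain members and 50863 CPM in PBS members, against 2694, 2930 and 5308 CPM in their other cells. Aldoa, the aldolase of glycolysis, was at 8458 CPM in the lonidamine library, 7527 CPM in papain and 12749.5 CPM in PBS, against 347, 381 and 747 CPM in their other cells. Ldha, the lactate dehydrogenase subunit that favours lactate formation, was at 3789.9 CPM in the lonidamine library, 3771 CPM in papain and 5949 CPM in PBS, against 245, 261 and 297 CPM in their other cells. Ldhb, the other subunit, ran the other way, at 80.3 CPM in the lonidamine library, 36.5 CPM in papain and 142 CPM in PBS, against 213, 285 and 872 CPM in their other cells. The hexokinase Hk1 was at 936 CPM in the lonidamine library, 749.8 CPM in papain and 827 CPM in PBS, against 65.5, 64.4 and 54.4 CPM in their other cells, while Hk2 was at 26.8 CPM in the lonidamine library, 46.3 CPM in papain and 9.32 CPM in PBS, against 85.8, 97.2 and 46.0 CPM in their other cells. Pfkl and Pfkp, subunits of phosphofructokinase, had 678 and 1338 CPM with lonidamine, 477 and 1037 CPM with papain and 1013 and 1470 CPM with PBS. The glucose carrier Slc2a1 was the remaining tested member and was not elevated, at 71.3 CPM in the lonidamine library, 90.1 CPM in papain and 53.6 CPM in PBS, against 84.6, 100 and 84.1 CPM in their other cells.

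The list was lower in other gland-like clusters than in the members. In the cluster with the highest Klk1, Fxyd2 and F5, a duct-like pattern, the glycolysis list summed to 3949 CPM with lonidamine, 4020.3 CPM with papain and 7285 CPM with PBS. In the cluster with the highest Bpifb6 and Ces1a it summed to 1846, 1665 and 2342 CPM. In a second cluster with high Ltf, Wfdc18 and Bpifb1, led by odorant-binding and major urinary protein genes, it summed to 526, 358 and 749 CPM. Some defining genes were shared with these clusters, at lower levels than in members. Ltf was at 21949, 24914 and 8991 CPM in the Klk1 cluster, and at 14292, 24570 and 1173 CPM in the second one. Cldn10 was at 869, 1118 and 1003 CPM in the Bpifb6 cluster. Pglyrp1 was at only 120, 121 and 112 CPM in the Klk1 cluster. Hif1a, the oxygen-regulated subunit of a transcription factor that controls glycolytic genes, was at 1101 CPM in the lonidamine library, 1171 CPM in papain and 913 CPM in PBS, against 127, 122 and 115 CPM in their other cells. Of 7 tested hypoxia genes 4 were at least 2-fold higher in members of every library than in all other cells, beside 10.4% of all genes. Against the Klk1 cluster the hypoxia list did not stand out, at 758 CPM in lonidamine members, 752 CPM in papain members and 825 CPM in PBS members, and 764, 929 and 614 CPM in that cluster. Among them was Car9, a membrane-bound carbonic anhydrase that responds to low oxygen, at 84.7 CPM in the lonidamine library, 43.8 CPM in papain and 55.9 CPM in PBS, against 0.784, 0.411 and 0.674 CPM in their other cells. The nuclear genes of oxidative phosphorylation had 0 of 18 higher and 0 lower, with medians of 0.02, -0.15 and -0.20.

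Some genes of fluid secretion and of gland identity were also higher in members than in all other cells, but as lists they were not higher than in the duct-like Klk1 cluster throughout. Of 13 tested genes of fluid and ion transport, 5 were higher in members of every library and 0 were lower, beside 10.4% and 5.93% of all genes. The list summed to 11922 CPM in lonidamine members, 11101 CPM in papain members and 9691 CPM in PBS members, against 11729, 10676 and 16994 CPM in the Klk1 cluster of the same libraries. Ano1, the calcium-activated chloride channel of acini, was at 771 CPM in the lonidamine library, 599 CPM in papain and 200.3 CPM in PBS, against 78.9, 69.2 and 18.1 CPM in their other cells. Kcnn4, a calcium-activated potassium channel, was at 388 CPM in the lonidamine library, 273 CPM in papain and 186 CPM in PBS, against 9.12, 8.02 and 7.61 CPM in their other cells. Fxyd3, a regulator of the sodium pump, was at 4303 CPM in the lonidamine library, 4341 CPM in papain and 4397 CPM in PBS, against 297, 331 and 143 CPM in their other cells. The water channel Aqp5 was not elevated, at 303 CPM in the lonidamine library, 334 CPM in papain and 498 CPM in PBS, against 339, 362 and 453 CPM in their other cells. Of 9 tested transcription factors of secretory cells 4 were higher, and the list summed to 2434, 2598 and 1805 CPM in members of the lonidamine, papain and PBS libraries, against 3426, 3289 and 2168 CPM in the Klk1 cluster, where it was higher in each library. Barx2, a homeobox factor of developing glands, was at 272 CPM in the lonidamine library, 341 CPM in papain and 231 CPM in PBS, against 12.5, 7.78 and 2.19 CPM in their other cells and 351, 299.6 and 199 CPM in the Klk1 cluster. Ehf, an epithelial ETS factor, was at 638 CPM in the lonidamine library, 699 CPM in papain and 557 CPM in PBS, against 136, 129 and 34.6 CPM in their other cells. The carbonic anhydrase Car12 was at 713 CPM in the lonidamine library, 596 CPM in papain and 363 CPM in PBS, against 54.2, 48.3 and 57.9 CPM in their other cells. Genes of the secretory pathway and the unfolded protein response had 0 of 17 higher and 0 lower. Among 12 tested antioxidant and xenobiotic genes, which the surrounding olfactory epithelium expresses strongly, 1 was higher, a share close to that of all genes, and 7 were lower.

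The members also differed among themselves within each library. After thinning every cell to 2000 UMIs, which kept 15, 18 and 30 members and left out 6, 12 and 62, Ltf had the highest ratio of variance to mean in PBS members among the genes examined. It took a median of 138 (range 4 to 344) of 2000 UMIs with lonidamine, 182.5 (3 to 351) with papain and 28.5 (1 to 459) with PBS. Without thinning, the share of Ltf in a cell's UMIs was 5.23% (range 0.271 to 16.1%) in the lonidamine library, 7.85% (0.108 to 16.9%) in papain and 1.63% (0 to 24.2%) in PBS. In every library some members thus carried almost none of the gene while others gave it a far larger share. The share also moved with depth. Its median was 10.6, 9.44 and 4.17% in lonidamine, papain and PBS members with at least 5000 UMIs. In those under 5000 UMIs it was 1.39, 0.829 and 1.54%. The papain members with at least 5000 UMIs all lay between 6.31 and 16.9%. The part of depth in this spread was not tested. Among members with at least 0.5% mitochondrial UMIs, the median Ltf share was 7.10, 8.07 and 5.52%, and among the 72 PBS members below that it was 1.40%. The other genes of highest variation by the same rule were Pglyrp1, Malat1, Lcn11, Wfdc18, S100a5, the ribosomal RNA gene Rn18s-rs5 and 5 mitochondrially encoded genes. Malat1 had a median of 19 (0 to 60), 27.5 (1 to 95) and 1.5 (0 to 91) of 2000 UMIs. Pglyrp1 had medians of 47 (13 to 92), 41 (11 to 103) and 53 (4 to 209).

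**Figure D4:**
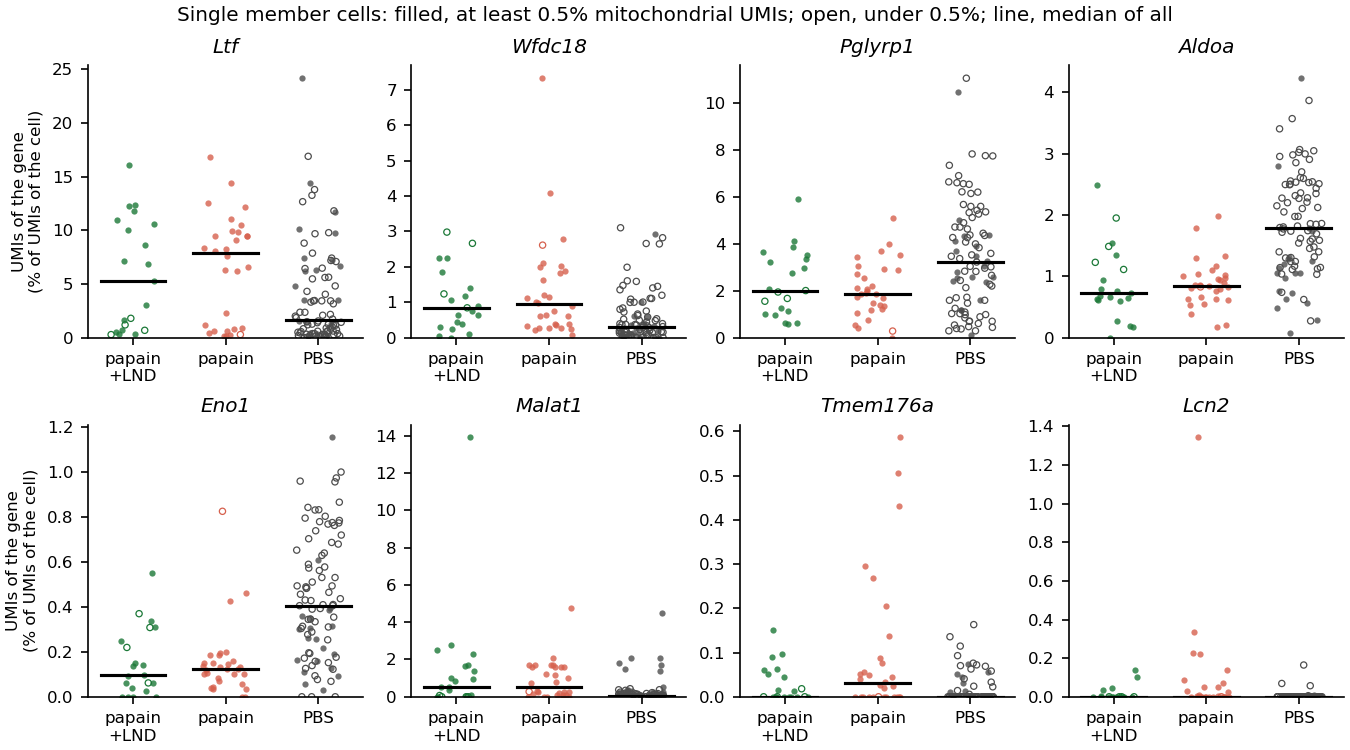
Points are single member cells of the lonidamine (papain + LND), papain and PBS libraries, with the gene's share of the cell's UMIs on the y axis (percent), filled for at least 0.5% mitochondrial UMIs and open below, and a line at the median of all members. Open points, 72 of 92 in PBS, make up most of the PBS column in every panel.

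The question of the papain comparison is how these cells differed between the inflammation model and PBS. With papain, Wfdc18, Chil1, Pigr and several early-response genes were higher in members, and 6 of 14 glycolysis genes were lower. Lcn2 and Rel were also higher, but passed the filter on level only through the papain library, which fixed their direction. Of 2319 genes tested (mean of at least 50 CPM over both libraries, the rule's genes set apart), 286 (12.3%) were at least 2-fold higher with papain and 80 (3.45%) at least 2-fold lower. Scgb1b27 was at 112587 CPM in PBS members, and CPM without secretoglobin and rule genes gave 242 higher and 210 lower of 2701, with the all-gene median at -0.19 in place of 0.00. In members with at least 5000 UMIs, 10.4% of 2316 genes were higher and 1.99% lower. In members with at least 0.5% mitochondrial UMIs, 10.1% of 2288 were higher and 1.92% lower, with an all-gene median of 0.14. Of the 366 genes called in all members, 255 were also at least 2-fold in the same direction in those of at least 5000 UMIs. For 1 of the 366 the ratio there had the opposite sign.

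Of the secreted defence products, some were at least 2-fold higher with papain and others were not. Wfdc18, a whey-acidic-protein family product of glands, was at 19514 CPM with papain and 4015 CPM with PBS, a log2 ratio of 2.28 [2.21, 2.36]. Its share per cell was 0.840% (range 0 to 2.98%) in the lonidamine library, 0.938% (0.0851 to 7.34%) in papain and 0.300% (0 to 3.10%) in PBS, so the libraries overlapped. Ltf was at 86848 CPM with papain and 44481 CPM with PBS, a ratio of 0.97 [0.94, 0.99], which was 0.62 in members with at least 0.5% mitochondrial UMIs. In other cells it was at 2229 CPM with papain and 228 CPM with PBS, a larger difference than in members. Chil1, a chitinase-like lectin of inflamed airways, was at 2595 CPM with papain and 422 CPM with PBS (2.62 [2.39, 2.86]). In other cells its ratio was 2.25. It had UMIs in 21 of 30 and 19 of 92 members, and in 15 of 15 and 10 of 14 members with at least 5000 UMIs. The median member had 4429.5 UMIs with papain and 1394.5 with PBS, so detection counts also moved with depth. Pigr, the receptor that carries IgA and IgM into secretions, was at 3345 CPM with papain and 1008 CPM with PBS (1.73 [1.57, 1.89]). The Pigr ratio in other cells was higher, at 2.74. Of 5 tested serous products 2 were at least 2-fold higher and 0 lower, beside 12.3% and 3.45% of all genes, with a median of 0.97 in members and 2.09 in other cells. Pglyrp1 ran the other way, at 23426 CPM with papain and 33481 CPM with PBS (-0.52 [-0.55, -0.48]).

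Lcn2, the siderophore-binding lipocalin of the acute phase, had the highest ratio of papain over PBS among the named genes. It was at 1001 CPM with papain and 16.3 CPM with PBS, a log2 ratio of 5.84 [4.88, 7.26], from UMIs in 14 of 30 papain and 5 of 92 PBS members. Among members with at least 5000 UMIs, Lcn2 was in 10 of 15 and 2 of 14. One papain cell held 39.4% of its UMIs, and without that cell the ratio was 5.16. Some genes of the NF-kB response were higher too. Rel, a subunit of NF-kB, was at 168 CPM with papain and 14.0 CPM with PBS (3.48 [2.39, 5.08]), with UMIs in 14 of 30 and 3 of 92 members. At 5000 UMIs or more it was in 13 of 15 and 3 of 14. Nfkbiz, a nuclear co-factor of NF-kB, was at 324 CPM with papain and 81.5 CPM with PBS (1.97 [1.44, 2.57]). Sbno2, a transcriptional co-regulator induced by cytokines, was at 321 CPM with papain and 21.0 CPM with PBS (3.87 [2.97, 5.10]). The neutrophil chemokine Cxcl1 was at 139 CPM with papain and 6.99 CPM with PBS (4.10 [2.69, 6.63]), below its level in other cells of the papain library and with 3 UMIs in PBS. Of 21 listed genes of the NF-kB and acute phase response 6 passed the filter. Lcn2, Cxcl1 and Reg3g, at 16.3, 6.99 and 32.6 CPM with PBS, passed it only through the papain library, where they are high. Their direction was thus fixed by entry, and no count over the list is read. Rel and Sbno2, at 14.0 and 21.0 CPM with PBS, passed the same filter in the same way. Nfkbiz, Nfkbia and Ltf, each above 50 CPM in both libraries, had ratios of 1.97, 0.87 and 0.97.

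The remaining named genes of higher level had varied functions. Foxq1, a forkhead factor of mucosal epithelium, was at 246 CPM with papain and 25.6 CPM with PBS (3.21 [2.36, 4.31]), in 11 of 30 and 9 of 92 members. Among members with at least 5000 UMIs it was in 11 of 15 and 6 of 14. Tmem176a, a membrane protein of endolysosomes, was at 1412 CPM with papain and 193 CPM with PBS (2.86 [2.53, 3.22]), in 18 and 24 members. At 5000 UMIs or more it was in 15 of 15 and 10 of 14. Arid5a, an RNA-binding protein that stabilises inflammatory transcripts, was at 112 CPM with papain and 9.32 CPM with PBS (3.43 [2.13, 5.52]). Ndst1, an enzyme of heparan sulphate synthesis, Klhl21, an adaptor of a ubiquitin ligase, and Nop58, a protein of ribosomal RNA modification, had ratios of 3.37 [2.28, 4.98], 2.84 [1.70, 4.46] and 3.86 [2.43, 6.39], each from few PBS UMIs. Arid5b, Cyp2f2, Skil and Zfp36l2 were also higher in members with papain, by 3.60, 2.92, 2.76 and 2.64, though each was lower in papain members than in other cells of that library. Foxq1, Arid5a, Ndst1, Klhl21 and Nop58, below 50 CPM with PBS, also passed the filter only through the papain library, which fixed their direction. The same holds for any other gene named here that was below 50 CPM with PBS. All named genes of higher level apart from 3 odorant-binding genes described below were at least 2-fold higher without their top cell.

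Immediate early and stress-response genes, which tissue digestion also induces, were higher too. Of 15 such genes 7 were at least 2-fold higher with papain and 0 lower, beside 12.3% and 3.45% of all genes, with a list median of 0.96, against 0.49 in other cells. Atf3 was at 1967 CPM with papain and 356 CPM with PBS (2.46 [2.21, 2.72]), Fosb at 803 CPM with papain and 170.0 CPM with PBS (2.23 [1.87, 2.63]) and Klf6 at 394 CPM with papain and 95.5 CPM with PBS (2.03 [1.54, 2.58]). Enzymes and chaperones of the secretory pathway had 6 of 18 higher and 0 lower, beside the same 12.3%, with a median of 0.91 against 0.14 in other cells. In members with at least 0.5% mitochondrial UMIs 2 of 19 were higher and the median was 0.63, a share close to the 10.1% of all genes in those members, so the count is no result about these genes there. Hspa5, the main chaperone of the endoplasmic reticulum, was at 484 CPM with papain and 196 CPM with PBS (1.30 [0.93, 1.69]). Xbp1, the factor that expands the secretory pathway, was at 519 CPM with papain and 209.6 CPM with PBS (1.30 [0.94, 1.68]). Among transport genes Ano1 was at 599 CPM with papain and 200.3 CPM with PBS (1.57 [1.22, 1.95]), one of 3 of 10 that were higher.

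Glycolytic transcripts were lower in papain members, by less in the members with more mitochondrial RNA. Of 14 tested genes 6 were at least 2-fold lower and 0 higher, with a list median of -0.85 in members and -0.71 in other cells, beside 3.45% of all genes. One of the 6 was Ldhb (-1.92), which was below 50 CPM with papain and passed the filter only through the PBS library. Eno1, an enolase, was at 1042 CPM with papain and 3239.8 CPM with PBS (-1.64 [-1.80, -1.48]). Gpi1, which isomerises glucose phosphate, was at 1456 CPM with papain and 3640.4 CPM with PBS (-1.32 [-1.46, -1.19]), and Tpi1, the triose isomerase, at 596 CPM with papain and 1356 CPM with PBS (-1.18 [-1.41, -0.97]). Aldoa and Gapdh had ratios of -0.76 [-0.82, -0.70] and -0.90 [-0.98, -0.82], within 2-fold. In members with at least 0.5% mitochondrial UMIs the list median was -0.31, with 2 of 14 lower, and Eno1, Aldoa and Gapdh had ratios of -0.98, -0.10 and -0.30. The shallow PBS barcodes were the ones richest in these transcripts: the list took a median of 6.99% of UMIs in the 72 PBS members under 0.5% mitochondrial UMIs. In the 20 other PBS members it took 5.15%, in the 29 such papain members 3.15% and in the 17 such lonidamine members 2.63%.

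The other named genes of lower level with papain came from several functions. Bpifb3, a secreted BPI-fold protein, was at 92.5 CPM with papain and 361 CPM with PBS (-1.95 [-2.52, -1.44]), but with each cell weighted equally its ratio was 0.32. S100a5, a calcium-binding protein of olfactory neurons, was at 41.4 CPM with papain and 717 CPM with PBS (-4.08 [-4.91, -3.41]), far under its level in other cells, where olfactory neuron markers were also lower with papain, summing to 4692 CPM against 18327 CPM with PBS. Below 50 CPM with papain, S100a5 passed the filter only through the PBS library, which fixed its direction. Cryab, a small heat shock protein, was at 148 CPM with papain and 389 CPM with PBS (-1.38 [-1.84, -0.96]). Ndufv2, a subunit of respiratory complex I, was at 117 CPM with papain and 347 CPM with PBS (-1.56 [-2.07, -1.09]). Trappc3, Nudt19, Phyh, Map2k1, Asrgl1, Taf13, Smim1 and Amd1 lay between -1.71 and -1.44. The direction of any of these below 50 CPM with papain was fixed by entry in the same way. Of the 12 lower genes named, 10 were also at least 2-fold lower in members with at least 0.5% mitochondrial UMIs, where Asrgl1 was at -0.14 and Eno1 at -0.98.

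Odorant-binding proteins in papain members came almost wholly from 1 cell. Obp1a, Obp1b and Gm14744, genes of lipocalins that carry odorants, had log2 ratios of papain over PBS of 5.83 [5.59, 6.11], 5.43 [5.11, 5.80] and 5.38 [4.85, 6.03]. The papain cell with 75665 UMIs held 98.6, 98.5 and 98.0% of their UMIs in papain members, and 96.5% of those of Lcn11, another nasal lipocalin. Without the deepest cell of each library the ratios were -0.29, -0.58 and -0.21, and that of Lcn11 was -2.13 in place of 2.54. Obp1a had a median of 0.0239, 0.0380 and 0% of the UMIs of a member in the lonidamine, papain and PBS libraries. The values of these 4 genes thus describe that cell and not the papain members.

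**Figure D5:**
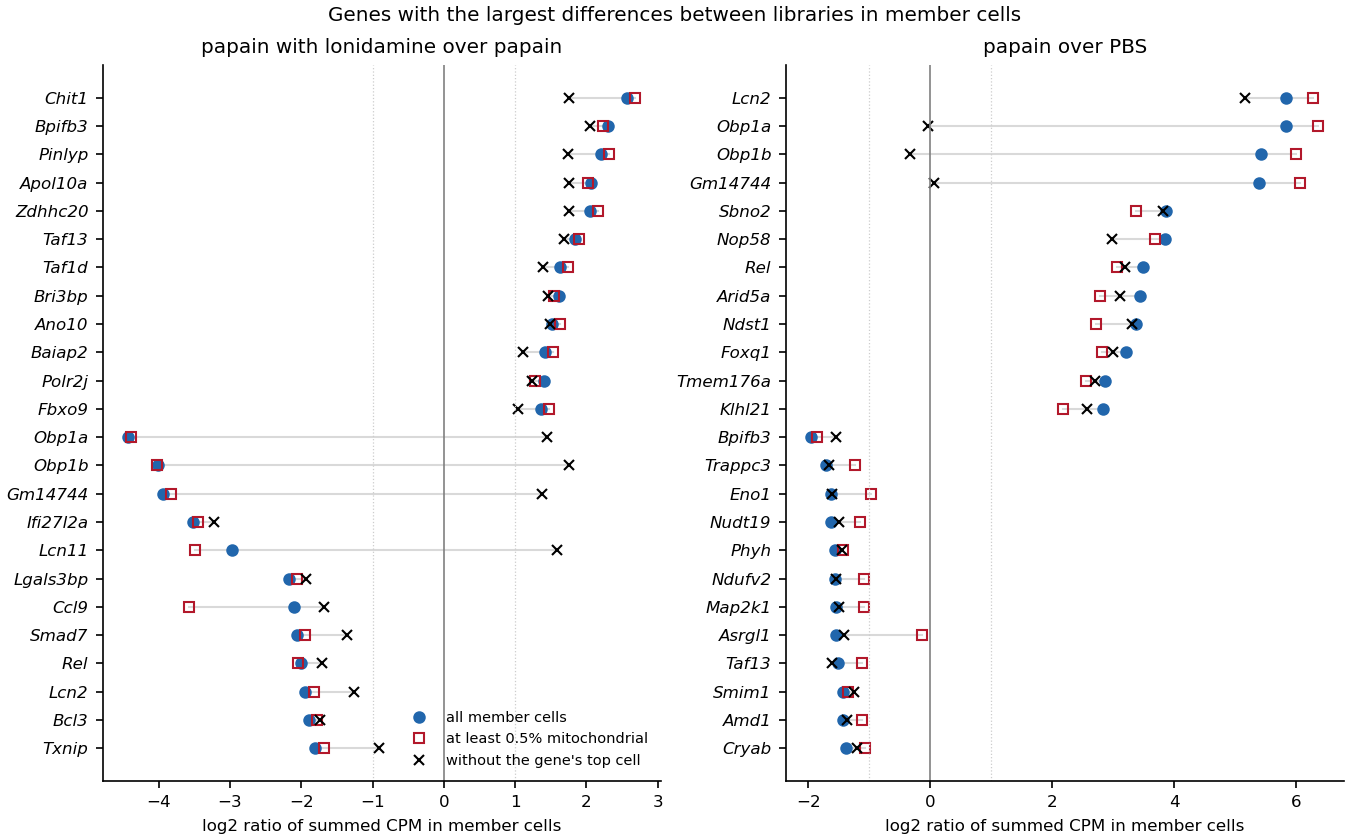
Points give log2 ratios of summed CPM in member cells (x) for the named genes (y), lonidamine over papain on the left and papain over PBS on the right, from all members, from members with at least 0.5% mitochondrial UMIs, and without the cell of the higher library that holds most UMIs of the gene. Obp1a, Obp1b and Gm14744 change side in the left panel and come close to 0 in the right one when that cell is left out.

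The lonidamine comparison asks what the drug added to papain. Fewer genes differed than between papain and PBS. Of 2473 genes tested, 74 (2.99%) were at least 2-fold higher with lonidamine and 96 (3.88%) lower, and CPM without secretoglobin and rule genes gave 113 higher and 100 lower. In members with at least 5000 UMIs 3.38% of 2454 genes were higher and 4.2% lower, and in those with at least 0.5% mitochondrial UMIs 3.12% of 2439 were higher and 3.69% lower. The 21 and 30 cells behind these values limit their precision, and with members taken by cluster 41 genes were higher and 44 lower. The papain library is the lower term here and the upper term of the comparison with PBS, so a gene that was high in papain members only would differ in both.

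The genes that lonidamine is known to act on, and the pathway they feed, differed little. Of 10 tested lonidamine targets, which are hexokinases, monocarboxylate and pyruvate carriers, succinate dehydrogenase and porin genes, 0 were at least 2-fold higher and 0 lower, with a median of 0.09. Hk1 was at 936 CPM with papain and lonidamine and 749.8 CPM with papain alone (0.32 [0.06, 0.58]). The pyruvate carrier subunit Mpc1 was at 424 CPM with papain and lonidamine and 460.1 CPM with papain alone (-0.12 [-0.49, 0.24]). Of 14 glycolysis genes 1 was higher, beside 2.99% of all genes, and the list median was 0.18, beside -0.02 for all genes tested. That gene was Ldhb, at 80.3 CPM with papain and lonidamine and 36.5 CPM with papain alone (1.13 [0.06, 2.23]). Being below 50 CPM with papain alone, Ldhb passed the filter only through the lonidamine library, which fixed its direction. Ldha was at 3789.9 CPM with papain and lonidamine and 3771 CPM with papain alone (0.01 [-0.12, 0.13]) and Aldoa had a ratio of 0.17 [0.08, 0.25]. For oxidative phosphorylation the list median was 0.10 with 0 of 18 past 2-fold, and the mitochondrially encoded genes a median of 0.62 with 0 of 11 past 2-fold.

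Several inflammatory and interferon-response transcripts were lower with lonidamine, though the direction of some of them was fixed by the filter. Of 8 tested genes of the NF-kB and acute phase list 4 were at least 2-fold lower and 0 higher, beside 3.88% and 2.99% of all genes, with a median of -0.85 in members and -0.22 in other cells. In members with at least 5000 UMIs 3 of 6 were lower and 1 was higher, beside 4.2% and 3.38%. Cxcl1 and Cxcl2 were below 50 CPM with lonidamine and entered through the papain library. Their direction was fixed by entry, and no count over the list is read. Lcn2 and Nfkbiz lay above 50 CPM in both libraries. Lcn2 was at 259 CPM with papain and lonidamine and 1001 CPM with papain alone (-1.94 [-2.37, -1.55]), with UMIs in 5 of 21 and 14 of 30 members, and at -1.26 without its top papain cell. Cxcl1 was at 44.6 CPM with papain and lonidamine and 139 CPM with papain alone (-1.58 [-2.77, -0.66]) and Nfkbiz at 152 CPM with papain and lonidamine and 324 CPM with papain alone (-1.08 [-1.68, -0.54]). Rel was at 40.1 CPM with papain and lonidamine and 168 CPM with papain alone (-2.00 [-3.25, -1.06]), and Bcl3, an NF-kB co-regulator, at 22.3 CPM with papain and lonidamine and 90.1 CPM with papain alone (-1.90 [-3.72, -0.66]). Both tested interferon-stimulated genes were lower, with Irf1 at 40.1 CPM with papain and lonidamine and 161 CPM with papain alone (-1.93 [-3.19, -0.99]) and Ifitm3 at 58.0 CPM with papain and lonidamine and 214 CPM with papain alone (-1.84 [-2.85, -1.04]). Irf1, Rel and Bcl3, each below 50 CPM with lonidamine, also entered through the papain library, which fixed their direction. Ifi27l2a, an interferon-inducible gene outside that list, was at 254 CPM with papain and lonidamine and 2926 CPM with papain alone (-3.51 [-3.93, -3.14]), and at 2336 CPM with PBS, so its level was lowest in the lonidamine members. One papain cell held 25.4% of its papain UMIs.

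Other named genes of lower level were Smad7, an inhibitor of TGF-beta signalling, at 17.8 CPM with papain and lonidamine and 82.8 CPM with papain alone (-2.07 [-4.17, -0.73]), and Lgals3bp, Ccl9 and Txnip, with ratios of -2.18 [-3.99, -0.97], -2.11 [-4.21, -0.77] and -1.80 [-3.43, -0.66]. Smad7, Lgals3bp, Ccl9 and Txnip were below 50 CPM with lonidamine and entered only through the papain library, which fixed their direction. So did any other gene named here below 50 CPM with lonidamine. Txnip was at -0.91 without its top cell, and with members taken by cluster Ccl9 was at 0.10 and Ifi27l2a at -1.68. With each cell weighted equally Lgals3bp was at -0.10 and Ccl9 at -0.52. Of the 12 lower genes named, 6 were then at least 2-fold lower. Obp1a, Obp1b, Gm14744 and Lcn11 had ratios of -4.43, -4.02, -3.95 and -2.97, which were 1.36, 1.80, 1.43 and 1.30 without the deepest cell of each library. The early-response list was at a median of -0.57, with 2 of 15 lower, beside 3.88% of all genes. These were Atf3 (-1.42 [-1.67, -1.18]) and Klf6 (-1.54 [-2.17, -0.99]). Igfbp5, Cyp2a5, Tgif1, Tm4sf1 and Apoe were also lower but under their levels in other cells. With members taken by cluster Cyp2a5 was at 0.07, and 1 papain cell held 90.4% of the Igfbp5 and 77.5% of the Apoe UMIs.

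The named genes of higher level with lonidamine mostly rested on small counts. Chit1, a secreted chitinase, was at 294 CPM with papain and lonidamine and 48.7 CPM with papain alone (2.57 [1.86, 3.40]), from UMIs in 5 of 21 and 8 of 30 members, 1 cell holding 50% of those in the lonidamine members. Bpifb3 was at 459 CPM with papain and lonidamine and 92.5 CPM with papain alone (2.30 [1.76, 2.89]), in 17 lonidamine and 14 papain members, beside 361 CPM with PBS. Pinlyp, a phospholipase inhibitor, was at 566 CPM with papain and lonidamine and 122 CPM with papain alone (2.21 [1.74, 2.72]). Apol10a, Zdhhc20, Taf13, Taf1d, Bri3bp, Ano10, Baiap2, Polr2j and Fbxo9 had ratios between 1.36 and 2.06 from 17 to 28 UMIs in the lonidamine members. These genes and Chit1 were below 50 CPM with papain alone and passed the filter only through the lonidamine library, which fixed their direction. Bpifb3 and Pinlyp lay above 50 CPM in both libraries. All 12 genes were at least 2-fold higher without their top cell, but only 5 of them when members were taken by cluster and 8 with each cell weighted equally. Omp, Epas1, Cmip, S100a6 and Atf5 were higher in members with lonidamine yet lower than in other cells of that library, and each rested largely on 1 lonidamine cell. The cell with 25071 UMIs held 91.0% of the Omp, 65.0% of the Cmip and 68.2% of the Atf5 UMIs, and without it they were at 1.04, 1.49 and 0.62. The cell with 16014 UMIs held 82.7% of both the Epas1 and the S100a6 UMIs, and without it Epas1 was at 1.14 and S100a6 at -0.23. For any of these genes below 50 CPM with papain alone, the direction was fixed by entry.

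The abundant products of the cells were within 2-fold of each other with and without lonidamine. Ltf was at 89156 CPM with papain and lonidamine and 86848 CPM with papain alone (0.04 [0.01, 0.06]), Wfdc18 at 11405 CPM with papain and lonidamine and 19514 CPM with papain alone (-0.77 [-0.84, -0.71]) and Pglyrp1 at 32522 CPM with papain and lonidamine and 23426 CPM with papain alone (0.47 [0.43, 0.52]). Cck was at 3665 CPM with papain and lonidamine and 1940.2 CPM with papain alone (0.92 [0.78, 1.06]), and at 3375 CPM with PBS. Chil1 was at 1868 CPM with papain and lonidamine and 2595 CPM with papain alone (-0.47 [-0.64, -0.31]), against 422 CPM with PBS, so both papain libraries lay above PBS. The intervals of the abundant genes are narrow because large counts stand behind them, and they do not cover differences between mice or preparations.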

How the data were processed

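Single-cell 3′ RNA libraries of nasal mucosa from 3 pooled groups were analysed. The values deposited by the authors are counts of UMIs per gene and cell barcode. The file headers name Cell Ranger 7.1.0, while the submitters' processing notes name Cell Ranger 2.1.1 and build GRCm39, and Seurat 4.3.0 is named in the labels' protocols. The libraries held between 82399462 and 89164040 UMIs.

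From these counts, member UMIs were summed per library and scaled to CPM over all UMIs. Log2 ratios used 0.5 added counts, with conditional binomial 95% intervals. Genes were tested at a mean of at least 50 CPM and counted at 2-fold. A gene below 50 CPM in 1 library could pass only through the other, so its direction was fixed by entry. With 1 library per group no p-value was computed. Shares have Clopper-Pearson intervals. The ratios and intervals were tested on simulated independent counts. These had no spread between cells, so that test does not cover genes whose UMIs come mostly from 1 cell. Doublets called by Scrublet, 1 among the members, were kept. Members and gene lists were chosen with earlier results of these data known.

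Defining genes were the 25 with the highest lowest-of-3 ratio over other cells, at 100 CPM and detection in 50% of members. Genes of a comparison were the 12 highest and 12 lowest at 2-fold with an interval excluding no difference and UMIs in 20% of members of the higher library. Up to 5 per direction that lay below other cells were named apart. Variable genes were the 12 with the highest variance to mean ratio in PBS members thinned to 2000 UMIs, among those of at least 200 CPM there. Listed genes could be named with their list. The cluster with the highest Ltf, Wfdc18 and Bpifb1 was the members' own, so the next one was used for comparison, a choice made after seeing the data.

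Alternatives were the thresholds, cell filter, doublets, sex-assigned cells, clustering, scaling, weighting, added count and CPM minimum. Splits at 5000 UMIs and 0.5% mitochondrial UMIs, and leaving out single cells, were added after seeing the data. Promoters came from RefSeq. Tools were Python 3.11.15, numpy 2.4.6, scipy 1.17.1, pandas 2.3.3, scanpy 1.11.5, leidenalg 0.10.2, scikit-image 0.26.0 and matplotlib 3.10.9.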

Additional observations from a re-analysis of the deposited data

Results flagged for a closer look

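The share ratios of members had opposite signs in cells assigned to a sex by Xist and Y-linked transcripts, but every interval included no difference. The log2 ratio of papain over PBS was 0.0738 [-1.42, 1.68] in female and -0.249 [-2.94, 2.11] in male cells. That of lonidamine over papain was -0.897 [-2.42, 0.55] in female and 1.15 [-1.21, 3.84] in male cells. That of lonidamine over PBS was -0.823 [-2.48, 0.87] in female and 0.905 [-1.21, 3.02] in male cells. These differences were not tested, and rest on 8, 11 and 7 female and 5, 3 and 5 male members of the lonidamine, papain and PBS libraries, with 8, 16 and 80 members unassigned.

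Among barcodes that failed the cell filter, 1 of 359 in the papain library met the gene rule, or 0.279%, against 0 of 449 in the lonidamine and 0 of 225 in the PBS library. This difference was not tested.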

How the results depend on the processing

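No paired analysis was possible because each group was 1 pooled library. The log2 share ratio of papain over PBS was 0.0738 in female and -0.25 in male cells, -0.0714 at 5000 UMIs or more over all cells, 0.0669 over cells of that depth, and -2.55 below it. It was 0.37 at 0.5% mitochondrial UMIs or more over all cells, 0.29 over such cells, and -6.34 below. Lonidamine over papain was 1.15 in male cells and 1.82 under 0.5%. Lonidamine over PBS was -0.82 in female and 0.90 in male cells, -0.70 at 5000 UMIs or more, -0.43 over such cells, -3.32 below, -0.59 at 0.5% or more, -0.66 over such cells and -4.52 below.

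Genes higher and lower with papain over PBS numbered 495 and 356 with cells weighted equally, 731 and 244 at 20 CPM, and 65 and 15 at 200 CPM. Those lower numbered 210 without secretoglobin genes, 53 at double minima, 147 in female cells, 46 at 5000 UMIs, 44 at 0.5% mitochondrial UMIs and 127 without the deepest cells. With lonidamine over papain they numbered 501 and 383 weighted equally, 380 and 318 at 20 CPM, 4 and 23 at 200 CPM, and 41 and 44 by cluster, with 113 higher without secretoglobin genes and 202 lower in female cells. Of the defining genes 16 were found again at 5000 UMIs.

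For papain over PBS, equal weighting gave Bpifb3 0.32, Smim1 0.0381, Lcn11 -0.63 and the BPI-fold list 0.35. Female cells gave Obp1a -0.24, Obp1b -0.48, Gm14744 -0.28, Asrgl1 0.41, Lcn11 -1.73 and the lipocalin list -0.36. Without the deepest cells Obp1a was -0.29, Obp1b -0.58, Gm14744 -0.21, Lcn11 -2.13 and the list -0.58. For lonidamine over papain, equal weighting gave Ano10 -0.27, Atf5 -0.26, Obp1a 0.12, Obp1b 0.37, Gm14744 0.64, Lcn11 0.74 and the list 0.74. Double minima gave S100a6 -0.38. Female cells gave S100a6 -0.73, Obp1a 1.05, Obp1b 1.09, Gm14744 1.17, Lcn11 2.04, Txnip 0.0808 and the list 1.07. By cluster Ccl9 was 0.10 and Cyp2a5 0.0697. Without the deepest cells Obp1a was 1.36, Obp1b 1.80, Gm14744 1.43, Lcn11 1.30 and the list 1.36. The cause was not tested. Beyond these, 1317 values stayed within the counting interval of the main value for a gene, or within 0.5 of it for a list, and 256 moved. A change of sign was recorded only where the main ratio was at least 2-fold. Pools of unknown size and 21 to 92 cells per library limit all values.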
